A study of Mus musculus with 9 samples.

Results

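Microglia from brains with a neuromyelitis optica-like lesion were compared between mice that had received clodronate liposomes before the lesion and mice that had received the lesion alone. The comparison was defined by the sample labels. It took the 3 libraries of the group called NMO+CL and the 3 of the group called NMO, 6 of the 9 libraries of the series, and all 12292 of 23238 gene symbols that passed a filter on low counts. Every mouse was an adult female wild-type C57BL/6N mouse. NMO mice had been injected into the striatum of one side with IgG of patients with neuromyelitis optica (NMO-IgG) mixed with human complement, and brains were taken on day 1. NMO+CL mice had the same injection and, some hours before it, clodronate liposomes into the peritoneum. Normal mice were untreated, and their levels are given here as a reference. Their libraries also entered the fit, in the filter, the scaling and the estimate of the spread. Each library was a pool of 3 mice, and the cells were sorted as CD45+ CD11b+ P2ry12+. Liposomes without clodronate and control IgG were not analysed here, so clodronate and its carrier cannot be told apart. The comparison asks how microglia of the early lesion differ when circulating monocytes are depleted.

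Microglia are the resident macrophages of the brain. In the healthy brain they express a set of homeostatic genes, among them the ADP receptor P2ry12, the lectin Siglech and the protease inhibitor Cst3, and many of these are known to be lower in activated microglia. Clodronate liposomes are taken up by phagocytes, in which the drug is turned into a metabolite that inhibits the mitochondrial ADP/ATP carriers and kills the cell. Given by the peritoneal route they are used to deplete monocytes and macrophages outside the brain.

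Total counts ran from 6160590 to 7837219 in NMO and from 5992746 to 7023239 in NMO+CL. The ribosomal RNA entry Rn45s took 19.2% ± 2.89 (SD, n = 3) and 23.6% ± 3.02 of them (exact two-sided permutation test, p = 0.2, where 0.1 is the smallest value that 3 against 3 libraries allow). NMO replicate 2 stood apart from the rest. It had no count for 66 genes that had 10 or more in each of the other 8 libraries, where the other libraries lacked 2 to 47 such genes, and results that changed without it are given below with the value found without it. All 10 microglia markers were detected in every library. Their summed level, as counts scaled to the effective library size (CPM), ran from 31040 to 36940 in NMO and from 22040 to 32190 in NMO+CL.

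The 2 groups differed at a few genes in either direction. At an adjusted p under 0.05 (edgeR quasi-likelihood test, Benjamini-Hochberg over all tested genes), 65 genes were higher in NMO+CL, 0.529% of those tested, and 131 were lower, 1.07%. Fold changes below are log2 values ± standard error. Their median was 1.39 among the first and -1.33 among the second, and it was -0.0050 over all tested genes. Of the called genes, 54 of the 65 and 103 of the 131 differed by 2-fold or more on the fitted scale. The 3 NMO+CL libraries lay entirely above the 3 NMO libraries for 64 of the 65 and entirely below for 129 of the 131. Over all tested genes the libraries did not overlap for 970 higher genes, 7.89%, and 1133 lower genes, 9.22%. With a looser limit of 1.5-fold and a raw p below 0.05, the higher set held 503 genes, 4.09%, and the lower set 817, 6.65%. A mean of 100 CPM or more in NMO was found for 66 of the 131 genes that fell and 19 of the 65 that rose. Calls depended on single libraries, and the losses listed gene by gene below are mainly those found on leaving out 1 library. Of the 82 called genes chosen by the naming rule, limma-voom did not call 9 (Ccl7, Grap, Hk3, Il1r2, Il7r, Nlrp3, Pdgfra, Sdhd and Tap2, adjusted p from 0.0539 to 0.261), DESeq2 did not call 3 (Il1r2, Tmsb4x and Upk1b, from 0.0643 to 0.0786), and the fit of the 6 libraries alone did not call 36. Fewest calls over the 14 alternatives were made for Nlrp3 (4), Lpcat2 (5), Hpgds, Olfml3 and Ucp2 (6 each) and Fcgr3, Il1r2, Prex1, Selplg and Tmsb4x (7 each). Without NMO replicate 1 there were 25 higher and 36 lower genes, without NMO replicate 2 there were 46 and 94, and without NMO+CL replicate 2 there were 18 and 33. In bulk RNA, fewer cells of a type and less RNA per cell cannot be told apart.

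**Figure D1:**
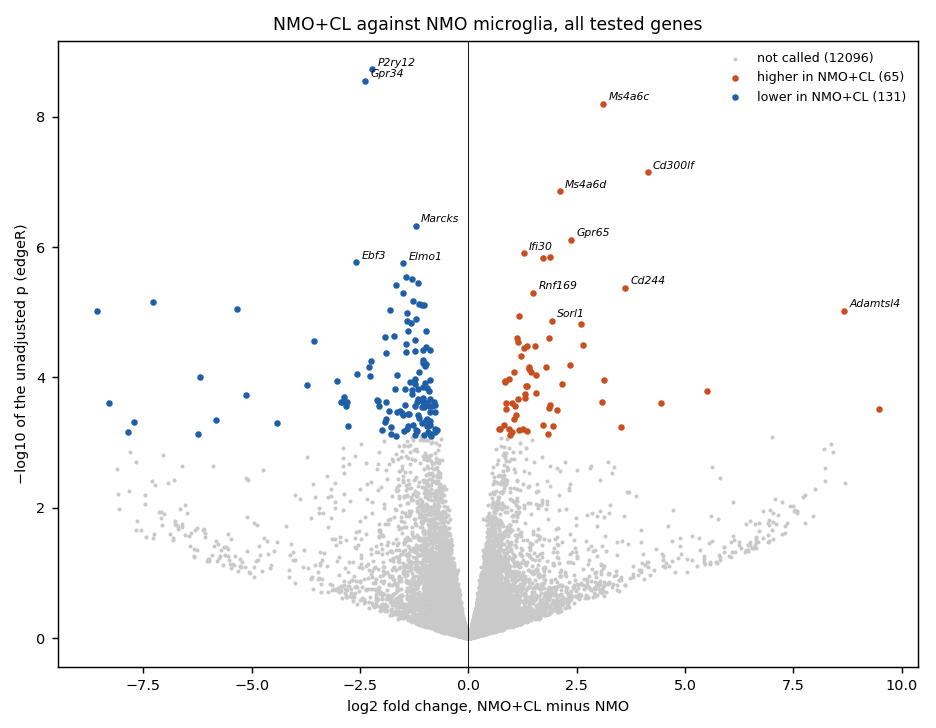
Each point is one of 12292 tested genes, with the log2 fold change of NMO+CL minus NMO on the x axis and the −log10 of the unadjusted edgeR p on the y axis. The 65 genes called higher (orange) and the 131 called lower (blue) form the upper edge, led by Ms4a6c and Cd300lf on the right and P2ry12 and Gpr34 on the left.

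Among the genes that rose, Ms4a6c had the smallest p, and 2 more Ms4a6 genes were called with it. Ms4a genes encode 4-pass membrane proteins of immune cells, and those of the Ms4a6 group are known from myeloid cells. Ms4a6b, Ms4a6c and Ms4a6d lie near each other on chromosome 19 (GRCm38, GENCODE M21 annotation), at 11516512 to 11531256 and 11469366 to 11482192 on the plus strand and at 11586604 to 11604849 on the minus strand. Ms4a6c had 76.9, 92.8 and 84.1 CPM in NMO and 825, 1005 and 357 CPM in NMO+CL (fitted log2 change 3.11 ± 0.29, adjusted p = 2.59e-05). Ms4a6d had 109.5, 167 and 119 CPM in NMO and 642, 704 and 359 CPM in NMO+CL (fitted log2 change 2.11 ± 0.25, adjusted p = 3.43e-04). Ms4a6b had 52.7, 67.8 and 34.3 CPM in NMO and 212, 215 and 141 CPM in NMO+CL (fitted log2 change 1.87 ± 0.26, adjusted p = 0.00178). For all 3 genes the lowest NMO+CL library, replicate 3, was more than 2 times the highest NMO library. The untreated Normal libraries lay within or below the NMO range, with 57.0 to 70.5 CPM of Ms4a6c, 89.3 to 102 of Ms4a6d and 50.7 to 60.1 of Ms4a6b. The 3 calls held in all 14 alternative fits. Of the 16 Ms4a genes in the files 7 were tested and these 3 called, and the other 4 (Ms4a4b, Ms4a4c, Ms4a4d and Ms4a7) had at most 10.2 CPM in any of the 6 libraries. The family was taken up as a list after its values had been seen. BE692007 has an exon opposite the 3′ end of Ms4a6c, and the use of strand in counting is not stated.

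The promoter windows of Ms4a6c and Ms4a6b are printed because both genes rose and the windows share a long run of sequence. They are from RefSeq on GRCm38.p6, from 250 bases before to 50 bases after the start, read 5′ to 3′ on the gene's strand, chr19:11469118-11469417 for Ms4a6c and chr19:11518309-11518608 for Ms4a6b, both on the plus strand. Capitals mark the NF-kB motif GGGACTTTC.
Ms4a6c: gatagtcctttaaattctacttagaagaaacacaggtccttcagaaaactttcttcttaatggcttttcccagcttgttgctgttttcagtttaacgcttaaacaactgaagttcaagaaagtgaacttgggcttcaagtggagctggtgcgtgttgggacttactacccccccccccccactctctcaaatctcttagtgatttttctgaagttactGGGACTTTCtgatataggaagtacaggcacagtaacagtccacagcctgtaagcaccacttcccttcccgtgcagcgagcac
Ms4a6b: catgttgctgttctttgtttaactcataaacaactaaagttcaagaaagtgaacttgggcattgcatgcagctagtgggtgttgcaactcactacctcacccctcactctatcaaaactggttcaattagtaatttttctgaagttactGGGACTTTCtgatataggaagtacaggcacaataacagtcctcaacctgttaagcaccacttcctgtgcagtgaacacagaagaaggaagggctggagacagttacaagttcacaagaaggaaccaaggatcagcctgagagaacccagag
The motif begins 32 bases before the start of Ms4a6c and 101 bases before that of Ms4a6b. It lies in both within an identical stretch of 48 bases, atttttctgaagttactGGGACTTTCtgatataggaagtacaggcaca, so the 2 matches are not independent. Searched on both strands, the motif is in the windows of 2 of the 57 called higher genes that have a window (3.51%), which are these 2, of 0 of 93 called lower genes and of 47 of 9328 tested genes (0.504%).

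The single receptor genes Cd300lf, Cd244, Gpr65, Gpr35 and Notch4 rose beside them. Cd300lf, a lipid-binding receptor of the CD300 family, had 11.2, 6.94 and 3.84 CPM in NMO and 74.9, 205 and 111 CPM in NMO+CL (fitted log2 change 4.14 ± 0.46, adjusted p = 2.18e-04). Cd244, a receptor of the SLAM family that binds CD48, had 14.2, 13.9 and 5.28 CPM in NMO and 104, 201 and 110.5 CPM in NMO+CL (fitted log2 change 3.63 ± 0.55, adjusted p = 0.00303). Both were close to absent in Normal, with 0.956 to 3.03 and 0.159 to 5.38 CPM, and their lowest NMO+CL library exceeded the highest NMO library several times over. Of the 12 tested CD300 and SLAM family members these 2 were called higher and 0 lower. In that list 7 were fitted above 0 and 5 below, with a median of 0.25. Cd300lf shares 336 bases of its 3′ end, at 95.5% identity, with Cd300ld, which had at most 13.6 CPM in the 6 libraries. Gpr65, a proton-sensing receptor, had 60.9, 47.4 and 27.9 CPM in NMO and 199, 335 and 167 CPM in NMO+CL (fitted log2 change 2.36 ± 0.31, adjusted p = 0.00135). Gpr35, a receptor that acts in leukocyte attraction, had 29.5, 20.8 and 17.3 CPM in NMO and 86.8, 84.4 and 77.0 CPM in NMO+CL (fitted log2 change 1.87 ± 0.33, adjusted p = 0.00751), and Notch4 had 9.68, 5.39 and 4.0 CPM in NMO and 40.9, 42.4 and 32.8 CPM in NMO+CL (fitted log2 change 2.60 ± 0.44, adjusted p = 0.00537). In each of these 3 genes the groups did not overlap, and all 5 calls held in all 14 alternatives.

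Some Fc receptor and complement genes also rose. Of 9 tested Fc receptor genes 2 were called higher and 0 lower (median 0.25). Fcgr4, an activating receptor for IgG, had 49.5, 64.0 and 12.2 CPM in NMO and 165, 235 and 165 CPM in NMO+CL (fitted log2 change 2.16 ± 0.44, adjusted p = 0.0184), against 6.77 to 18.2 CPM in Normal. Fcgr3, another activating IgG receptor and the most abundant of the 3 receptors compared here, had 780.3, 774 and 620.4 CPM in NMO and 961, 1334 and 1531 CPM in NMO+CL (fitted log2 change 0.82 ± 0.19, adjusted p = 0.0403). The high-affinity receptor Fcgr1 had 325 to 336 CPM in NMO and 318 to 399 CPM in NMO+CL and was not called (0.095, adjusted p = 0.899). Of 22 tested complement components and receptors 2 were called higher and 0 lower, and the median was 0.49. C5ar1, the receptor for the anaphylatoxin C5a, had 245, 348 and 192 CPM in NMO and 632, 691 and 362 CPM in NMO+CL (fitted log2 change 1.10 ± 0.25, adjusted p = 0.0318). C4b, a component of the classical pathway, had 13.8, 10.8 and 18.7 CPM in NMO and 73.7, 71.1 and 74.5 CPM in NMO+CL (fitted log2 change 2.34 ± 0.45, adjusted p = 0.0129), but it shares 499 bases at its 3′ end with C4a at 98.4% identity, so their counts are not separable with certainty. The 3 chains of C1q, the most abundant members, were not called, with 0.19, adjusted p = 0.793 for C1qa, 0.46, adjusted p = 0.184 for C1qb and -0.14, adjusted p = 0.809 for C1qc. Without NMO replicate 1 the adjusted p was 0.0523 for Fcgr4, 0.10 for Fcgr3, 0.122 for C5ar1 and 0.0592 for C4b, and without NMO+CL replicate 2 it was 0.0919, 0.168, 0.192 and 0.0596. Fcgr3 further missed the threshold when either NMO replicate 2 (0.0585) or the NMO library of replicate 3 (0.128) was left out, or NMO+CL replicate 3 (0.120), and C5ar1 without NMO replicate 3 (0.106) or NMO+CL replicate 1 (0.0710). Both were also lost with the 6 libraries alone (0.0973 for each) and with library totals alone (0.0708 for Fcgr3 and 0.0522 for C5ar1).

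Cytokine receptors and an uptake receptor followed. Il4ra, the receptor chain shared by interleukin-4 and interleukin-13, had 407, 285 and 527 CPM in NMO and 838, 976 and 1134 CPM in NMO+CL (fitted log2 change 1.27 ± 0.23, adjusted p = 0.00877), and Lifr, the receptor of leukemia inhibitory factor, had 117, 116 and 144 CPM in NMO and 233, 227 and 235 CPM in NMO+CL (fitted log2 change 0.88 ± 0.19, adjusted p = 0.0252). They were the 2 called of 20 tested class I and II cytokine receptors, of which 0 were called lower (median 0.34). Msr1, a class A scavenger receptor, had 119, 101 and 40.0 CPM in NMO and 295, 364 and 239 CPM in NMO+CL (fitted log2 change 1.79 ± 0.34, adjusted p = 0.0131) and at most 0.67 CPM in Normal. It was 1 called higher of 17 tested scavenger and lipoprotein receptors, while Marco, the other class A receptor singled out here, had 26.3 to 116 CPM in NMO and 32.3 to 59.5 CPM in NMO+CL and was not called (-0.63, adjusted p = 0.609). In the interleukin-1 and inflammasome list 2 of 23 were higher and 1 lower. Naip2, a sensor of bacterial proteins, had 109.5, 102 and 76.7 CPM in NMO and 184, 231 and 188 CPM in NMO+CL (1.06, adjusted p = 0.0148), and Nlrp3, the core of the best known inflammasome, had 73.8, 86.5 and 56.7 CPM in NMO and 29.2, 34.5 and 29.0 CPM in NMO+CL (-1.23, adjusted p = 0.0484). Il1b itself had 44.5 to 91.2 CPM in NMO and 66.5 to 73.8 CPM in NMO+CL (0.046, adjusted p = 0.983) and Tnf 20.7 to 47.5 CPM in NMO and 38.0 to 75 CPM in NMO+CL (0.63, adjusted p = 0.500), and neither was called. Without NMO+CL replicate 2 the adjusted p was 0.0779 for Msr1, 0.105 for Naip2, 0.105 for Lifr and 0.132 for Nlrp3, and without NMO replicate 1 it was 0.0505 for Il4ra, 0.122 for Lifr and 0.149 for Nlrp3. Nlrp3 was called in 4 of 14 alternatives, being lost also without NMO replicate 2 (0.147), NMO+CL replicate 1 (0.0943) or NMO+CL replicate 3 (0.106), and Lifr also without NMO replicate 2 (0.0839).

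Genes that glucocorticoids are known to induce made up the list with the highest median among lists with 10 or more tested members, 1.09 over 15 tested genes. 4 of the 15 were called higher and 0 lower, and the list was chosen with earlier results of these data known. Fkbp5, a co-chaperone of the glucocorticoid receptor, had 44.5, 48.1 and 53.5 CPM in NMO and 164, 184 and 134 CPM in NMO+CL (fitted log2 change 1.72 ± 0.24, adjusted p = 0.00178), with 25.5 to 40.0 CPM in Normal, and its call held in all 14 alternatives. Ddit4, an inhibitor of mTORC1, had 78.5, 118 and 198 CPM in NMO and 430.4, 839 and 189 CPM in NMO+CL (fitted log2 change 1.89 ± 0.41, adjusted p = 0.0258), and here NMO+CL replicate 3 lay below NMO replicate 3. Mt1, a metallothionein, had 60.1, 59.7 and 81.7 CPM in NMO and 143, 177 and 107 CPM in NMO+CL (fitted log2 change 1.09 ± 0.24, adjusted p = 0.0259). Il1r2, the decoy receptor of interleukin-1, had 2.51, 1.80 and 2.40 CPM in NMO and 23.1, 118 and 6.41 CPM in NMO+CL (fitted log2 change 4.45 ± 0.97, adjusted p = 0.0252), so that most of its signal came from NMO+CL replicate 2. Klf9 (2.04, adjusted p = 0.0969), Per1 (1.12, adjusted p = 0.171) and Tsc22d3 (0.99, adjusted p = 0.341) were not called, and Sgk1 (-0.66, adjusted p = 0.132) and Sesn1 (-1.07, adjusted p = 0.200) had values in the other direction. Without NMO+CL replicate 2 the adjusted p was 0.191 for Ddit4, 0.181 for Mt1 and 0.502 for Il1r2, with log2 values of 1.24 for Ddit4 and 2.71 for Il1r2, without NMO replicate 1 it was 0.122, 0.126 and 0.0937, and without NMO replicate 2 0.0584, 0.0839 and 0.0584. Il1r2 was lost as well without NMO replicate 3 (0.0646), by limma-voom (0.261), by DESeq2 (0.0786) and with a replicate block (0.0565). Neutrophils and monocytes are known to express it. In NMO+CL replicates 1, 2 and 3 the neutrophil markers summed to 1473, 320.4 and 577 CPM and the monocyte markers to 135, 107 and 77.9 CPM. The part of these cells in the Il1r2 values was not tested.

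The remaining genes among the 15 rises with the smallest p were of mixed function. Ifi30, a thiol reductase of lysosomes that prepares antigens, had 296, 271 and 271 CPM in NMO and 627, 762 and 638 CPM in NMO+CL (fitted log2 change 1.28 ± 0.18, adjusted p = 0.00178). Sorl1, a sorting receptor, had 25.8, 31.6 and 32.2 CPM in NMO and 137, 141 and 62.1 CPM in NMO+CL (fitted log2 change 1.92 ± 0.32, adjusted p = 0.00508). Rnf169, a ubiquitin-binding protein of DNA repair, had 90.6, 88.5 and 85.5 CPM in NMO and 188, 349.9 and 208 CPM in NMO+CL (fitted log2 change 1.5 ± 0.23, adjusted p = 0.00328). The transcription factor Klf13 had 109, 107 and 96.1 CPM in NMO and 227, 267 and 211 CPM in NMO+CL (fitted log2 change 1.18 ± 0.19, adjusted p = 0.00460) and Id2, which blocks other transcription factors from binding DNA, had 324, 305 and 217 CPM in NMO and 539, 746 and 562 CPM in NMO+CL (fitted log2 change 1.12 ± 0.20, adjusted p = 0.00751). Adamtsl4, a secreted matrix protein, had 0, 0 and 1 counts in NMO and 111, 255 and 128 in NMO+CL, a ratio of 578 with an exact 95% interval of 103 to 22873 that covers counting error only (adjusted p = 0.00415). Its 3′ end shares up to 122 bases with 8 other genes, Bcap29 among them at 95.9% identity, so reads of those genes cannot be told apart there. All 6 of these genes were called in all 14 alternatives but Id2, which had an adjusted p of 0.0645 without NMO+CL replicate 2. Klf4, the 1 gene called higher among 44 lineage transcription factors, had 99.4 to 102 CPM in NMO and 207 to 348 CPM in NMO+CL (1.35, adjusted p = 0.00839, and 0.0734 without NMO+CL replicate 2).

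**Figure D2:**
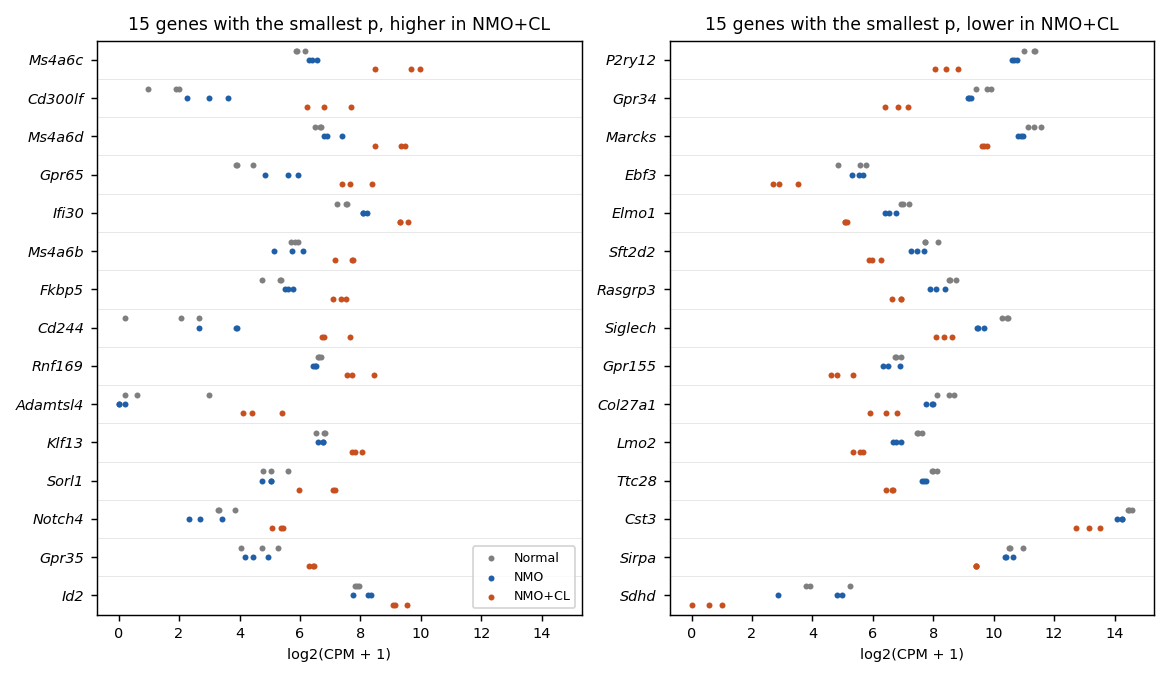
The 15 genes with the smallest p in each direction, with log2(CPM + 1) on the x axis and 1 point for each of 3 libraries per group. Genes were picked so that the NMO+CL points (orange) lie clear of the NMO points (blue), and Normal (grey) is plotted for reference.

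Among the genes that fell, the smallest p values belonged to 2 receptors of microglia. P2ry12, the receptor for ADP that directs microglial processes and on which the cells were gated, had 1756, 1558 and 1629.5 CPM in NMO and 449, 266 and 344 CPM in NMO+CL (fitted log2 change -2.22 ± 0.19, adjusted p = 1.73e-05), and Normal had 2055 to 2665 CPM. Gpr34, a receptor for lysophosphatidylserine of the same receptor branch, had 613, 564 and 579 CPM in NMO and 112, 83.1 and 143 CPM in NMO+CL (fitted log2 change -2.37 ± 0.21, adjusted p = 1.73e-05), and Normal had 684 to 971 CPM. For both genes every NMO+CL library lay far below every NMO library. These were the 2 called of 10 tested purinergic receptors and ectonucleotidases, of which 0 were higher (median -0.30). P2ry13, a neighbour of P2ry12 on chromosome 3, had 1578 to 1675 CPM in NMO and 813 to 1287 CPM in NMO+CL (-0.74, adjusted p = 0.0969) and P2ry6 129 to 199 CPM in NMO and 163 to 263 CPM in NMO+CL (0.34, adjusted p = 0.588), and neither was called. The gate was set on P2ry12 protein at the surface, and transcripts of the other gate proteins had values of 0.31 for Ptprc (CD45, adjusted p = 0.529) and -0.20 for Itgam (CD11b, adjusted p = 0.769).

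The P2ry12 window is printed because this gene had the smallest p of all. It is chr3:59262936-59263235 on the minus strand, from the same source, with capitals on the E-box CACGTG, the site of TFE-type factors, 228 bases before the start.
P2ry12: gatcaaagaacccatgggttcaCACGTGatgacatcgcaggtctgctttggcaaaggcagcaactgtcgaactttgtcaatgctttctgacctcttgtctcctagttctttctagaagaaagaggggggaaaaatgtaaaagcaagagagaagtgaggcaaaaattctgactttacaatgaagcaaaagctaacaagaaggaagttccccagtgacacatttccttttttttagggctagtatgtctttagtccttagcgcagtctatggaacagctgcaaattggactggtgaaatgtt
This motif, which is its own reverse complement, is in the windows of 6 of 93 called lower genes (6.45%), 9 of 57 called higher genes (15.8%) and 1104 of 9328 tested genes (11.8%).

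Several homeostatic microglia genes fell. Of 30 tested surface and secreted genes of this kind 9 were called lower and 0 higher, against 1.07% and 0.529% of all tested genes. The list median was -0.58, and 18 of the 30 lay without overlap below NMO, against 9.22% of all tested genes. The list was chosen with earlier results of these data known. Siglech had 715, 811 and 693 CPM in NMO and 324, 273 and 392 CPM in NMO+CL (fitted log2 change -1.16 ± 0.17, adjusted p = 0.00291), and Normal had 1236 to 1432 CPM. Cst3, among the most abundant transcripts of these cells, had 17268, 19630.0 and 19342 CPM in NMO and 11864, 9194 and 6806 CPM in NMO+CL (fitted log2 change -1.01 ± 0.16, adjusted p = 0.00393). Slc2a5, a fructose transporter, had 353, 419.8 and 413 CPM in NMO and 125, 102 and 218 CPM in NMO+CL (fitted log2 change -1.41 ± 0.24, adjusted p = 0.00508). These 3 calls held in all 14 alternatives, and in each gene every NMO+CL library was below every NMO library. The other 6 were Upk1b (-2.88, adjusted p = 0.0239), Crybb1 (-1.22, adjusted p = 0.0184), Serpine2 (-1.05, adjusted p = 0.0115), Ecscr (-1.03, adjusted p = 0.0245), Olfml3 (-0.77, adjusted p = 0.0435) and Selplg (-0.72, adjusted p = 0.0441). All 6 were lost without NMO replicate 1, with adjusted p values from 0.0523 to 0.143, and all but Serpine2 without NMO+CL replicate 2, with values from 0.113 to 0.234. Ecscr and Olfml3 were lost without NMO replicate 2 (0.0729 and 0.0839), Ecscr, Olfml3 and Selplg without NMO replicate 3 (0.0568, 0.0965 and 0.203), Ecscr and Selplg without NMO+CL replicate 3 (0.0510 and 0.107) and Olfml3 without NMO+CL replicate 1 (0.0600). Without NMO+CL replicate 1 the log2 value of Upk1b was -4.06. Other well known homeostatic genes missed the threshold. Tmem119 had 2774, 2778 and 3419 CPM in NMO and 2265, 2118 and 3093 CPM in NMO+CL (-0.26, adjusted p = 0.597), Cx3cr1 11087, 12791 and 9472 CPM in NMO and 6898, 7556 and 10018 CPM in NMO+CL (-0.45, adjusted p = 0.198) and Csf1r 6398 to 8056 CPM in NMO and 4649.7 to 9283 CPM in NMO+CL (-0.083, adjusted p = 0.937), and these were not called, although leaving out NMO+CL replicate 3 brought Cx3cr1 under the threshold (-0.62, adjusted p = 0.0434). The number of homeostatic genes called lower ran from 3 to 12 over the 14 alternatives, and the list median from -0.63 to -0.50. The number called higher was 0 in 13 of them and 1 without NMO+CL replicate 3.

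**Figure D3:**
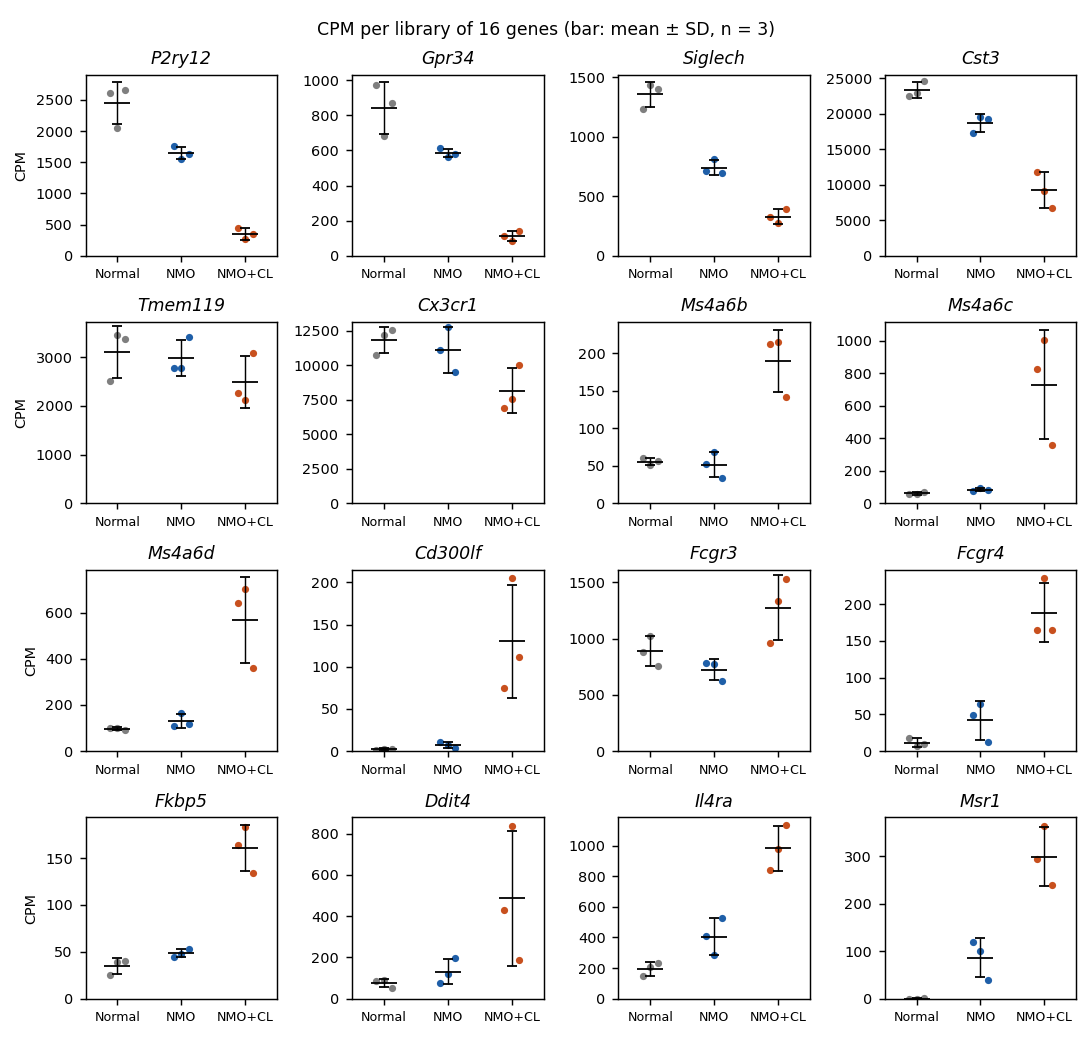
CPM per library of 16 genes in Normal, NMO and NMO+CL, with the mean and SD of 3 libraries as bars and the y axis from 0. P2ry12, Gpr34, Siglech and Cst3 step down in NMO+CL while Tmem119 and Cx3cr1 overlap NMO, and Ms4a6b, Ms4a6c, Ms4a6d, Cd300lf, Fkbp5 and Msr1 step up, with Ddit4 overlapping at 1 library.

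Some genes of signalling below immune receptors also fell. Of 30 tyrosine kinase signalling adaptors, a list drawn up after the values had been seen, 7 were called lower and 0 higher, with a median of -0.07. Rasgrp3, an activator of Ras, had 334, 238 and 269.8 CPM in NMO and 98.6, 122 and 121 CPM in NMO+CL (fitted log2 change -1.30 ± 0.19, adjusted p = 0.00273). Sirpa, the receptor for CD47 that restrains phagocytosis, had 1589.8, 1353 and 1323 CPM in NMO and 685, 679.8 and 682 CPM in NMO+CL (fitted log2 change -1.06 ± 0.17, adjusted p = 0.00393). Blnk, a scaffold of B-cell and myeloid receptor signalling, had 149, 114 and 171 CPM in NMO and 29.0, 29.2 and 65.7 CPM in NMO+CL (fitted log2 change -1.81 ± 0.29, adjusted p = 0.00415). These 3 held in all 14 alternatives. Also called were Bank1 (-1.14, adjusted p = 0.0148), Grap (-1.39, adjusted p = 0.0312), Plcl2 (-1.19, adjusted p = 0.0252) and Pik3cg (-1.01, adjusted p = 0.0262). All 4 were lost without NMO replicate 1 (adjusted p from 0.0528 to 0.118) and without NMO+CL replicate 2 (from 0.0779 to 0.181), Grap, Plcl2 and Pik3cg also without NMO replicate 3 (from 0.0917 to 0.124), Plcl2 without NMO+CL replicate 1 (0.0624) and Pik3cg without NMO+CL replicate 3 (0.0726). The kinases Syk (0.37, adjusted p = 0.472) and Btk (0.39, adjusted p = 0.703) and the adaptor Tyrobp (0.0083, adjusted p = 0.996) were not called.

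Regulators of actin and cell motility, also listed after the fact, had 10 called lower and 1 called higher among 58 tested, with a median of -0.22. Marcks, which cross-links actin at the membrane, had 1988, 1922 and 1802 CPM in NMO and 868, 811 and 778 CPM in NMO+CL (fitted log2 change -1.22 ± 0.16, adjusted p = 9.72e-04). Elmo1, which acts with Dock proteins on Rac in engulfment and migration, had 92.2, 109 and 82.9 CPM in NMO and 32.7, 34.3 and 32.8 CPM in NMO+CL (fitted log2 change -1.51 ± 0.21, adjusted p = 0.00181). The NMO+CL libraries of both genes lay close together and well below NMO, and both calls held in all 14 alternatives. Tmsb4x, the abundant thymosin that binds actin monomers, had 4249, 3900.5 and 3581 CPM in NMO and 2640.5, 1771 and 1188 CPM in NMO+CL (-1.07, adjusted p = 0.0393). The other 7 were Capzb (-1.04, adjusted p = 0.00901), Cyfip1 (-0.88, adjusted p = 0.0251), Srgap2 (-0.76, adjusted p = 0.0258), Cd2ap (-0.90, adjusted p = 0.0209), Fscn1 (-0.96, adjusted p = 0.0413), Evl (-0.94, adjusted p = 0.0413) and Prex1 (-1.17, adjusted p = 0.0444). Iqgap1, a scaffold of the cell cortex, rose (1.45, adjusted p = 0.0148). Actb (0.029, adjusted p = 0.977) and Cfl1 (-0.12, adjusted p = 0.878) were not called. The calls of Tmsb4x and of the other 7 were lost without NMO replicate 1 (adjusted p from 0.0523 to 0.159) and without NMO+CL replicate 2 (from 0.0757 to 0.227), and that of Iqgap1 without NMO+CL replicate 2 (0.0899). Cyfip1, Evl, Fscn1, Prex1 and Tmsb4x were lost without NMO replicate 2 (from 0.0566 to 0.131), Srgap2, Prex1 and Tmsb4x without NMO replicate 3 (from 0.0574 to 0.0905), Fscn1 without NMO+CL replicate 1 (0.0987), and Cyfip1, Evl, Prex1 and Tmsb4x without NMO+CL replicate 3 (from 0.0622 to 0.129). Evl faces Degs2 at its 3′ end on the other strand. The 2 genes had nearly the same counts, 1065 and 958 in NMO replicate 1 and 347 and 302 in NMO+CL replicate 3, so their calls cannot be told apart.

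Further falls touched transcription factors and collagen. Ebf3, a factor of the early B-cell factor family, had 39.0, 45.8 and 50.1 CPM in NMO and 10.5, 6.48 and 5.44 CPM in NMO+CL (fitted log2 change -2.58 ± 0.36, adjusted p = 0.00181). Lmo2, a partner of hematopoietic transcription factors, had 108, 119.8 and 100.4 CPM in NMO and 49.8, 39.5 and 46.4 CPM in NMO+CL (fitted log2 change -1.27 ± 0.20, adjusted p = 0.00393). Col27a1, a fibrillar collagen, had 251, 216 and 248 CPM in NMO and 109, 58.5 and 85.2 CPM in NMO+CL (fitted log2 change -1.5 ± 0.23, adjusted p = 0.00328). Gpr155, a lysosomal membrane protein, had 89.0, 80.7 and 118 CPM in NMO and 27.4, 39.4 and 23.2 CPM in NMO+CL (fitted log2 change -1.68 ± 0.25, adjusted p = 0.00296), Sft2d2, of vesicle transport, had 174, 153 and 208 CPM in NMO and 62.3, 58.0 and 76.1 CPM in NMO+CL (fitted log2 change -1.44 ± 0.21, adjusted p = 0.00269) and Ttc28 had 213, 206 and 199 CPM in NMO and 99.8, 97.9 and 84.9 CPM in NMO+CL (fitted log2 change -1.13 ± 0.18, adjusted p = 0.00393). These 6 were called in all 14 alternatives. Maf, the 1 gene called lower among 44 lineage transcription factors, had 519 to 593 CPM in NMO and 307 to 348 CPM in NMO+CL (-0.77, adjusted p = 0.0295). Tgfbr1, a receptor for the factor that maintains microglial identity, was the 1 called of 15 TGF-beta ligand, receptor and Smad genes, with 712 to 996 CPM in NMO and 387 to 485 CPM in NMO+CL (-0.95, adjusted p = 0.0199), and Tgfbr2 was not called (-0.82, adjusted p = 0.123). Without NMO replicate 1 the adjusted p was 0.122 for Maf and 0.0523 for Tgfbr1, and without NMO+CL replicate 2 0.143 and 0.118. Maf was lost as well without NMO replicate 2 (0.0839) or NMO+CL replicate 1 (0.0718), and Tgfbr1 without NMO replicate 3 (0.0827).

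Sdhd, a subunit of succinate dehydrogenase, had 215, 256 and 39 counts in NMO and 7, 3 and 0 in NMO+CL (-5.33, adjusted p = 0.00415), and it was not called by limma-voom (adjusted p = 0.183), while its log2 value was -6.36 without NMO+CL replicate 1. It was the 1 called of 80 tested nuclear subunits of oxidative phosphorylation, whose median was 0.05.

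In other lists single genes or pairs were called, in both directions. Ccl7, a monocyte-attracting chemokine, had 34.2, 31.1 and 11.8 CPM in NMO and 2.92, 2.27 and 1.28 CPM in NMO+CL (-3.56, adjusted p = 0.00789), the 1 called of 16 chemokines, and without NMO replicate 1 it was not called (0.0640), nor was it by limma-voom (0.0783). In antigen presentation, 2 of 18 were called lower and 0 higher, with a median of -0.38. They were the immunoproteasome subunit Psmb9 (36.7, 50.5 and 31.7 CPM in NMO and 14, 7.45 and 2.88 CPM in NMO+CL, -2.28, adjusted p = 0.0131) and the peptide transporter Tap2 (66.4, 85.1 and 15.4 CPM in NMO and 15, 8.75 and 16.3 CPM in NMO+CL, -2.06, adjusted p = 0.0259), where NMO replicate 3 lay within the NMO+CL range. Without NMO+CL replicate 1 the log2 value of Psmb9 was -2.94. Among 17 leukotriene and prostaglandin enzymes, listed after the fact, the 2 that begin leukotriene synthesis were higher, Alox5 (30.1 to 42.4 CPM in NMO and 73.5 to 105 CPM in NMO+CL, 1.33, adjusted p = 0.0190) and Alox5ap (292 to 349.5 CPM in NMO and 540.4 to 634 CPM in NMO+CL, 0.85, adjusted p = 0.0177), and the prostaglandin D synthase Hpgds (356 to 443 CPM in NMO and 204 to 283 CPM in NMO+CL, -0.77, adjusted p = 0.0457) and Lpcat2, which makes platelet-activating factor, were lower (382 to 717 CPM in NMO and 264 to 322 CPM in NMO+CL, -0.87, adjusted p = 0.0496). Hpgds and Lpcat2 were not called with size factors of DESeq2 (0.0653 and 0.0598), with the 6 libraries alone (0.133 and 0.135) or without Rn45s (0.0512 and 0.0506), Hpgds also not with totals alone (0.0529) and Lpcat2 not with a replicate block (0.0751). Without NMO+CL replicate 2 the adjusted p was 0.0764 for Psmb9, 0.143 for Tap2, 0.108 for Alox5, 0.118 for Alox5ap, 0.218 for Hpgds and 0.232 for Lpcat2. Without NMO replicate 1 it was 0.104, 0.0523, 0.0739, 0.180 and 0.146 for the last 5 of these. Without NMO replicate 2, Tap2 (0.0997) and Lpcat2 (0.203) were lost, without NMO replicate 3 Alox5 (0.0569), Alox5ap (0.0523) and Hpgds (0.138), without NMO+CL replicate 1 Hpgds (0.122) and Lpcat2 (0.0747), and without NMO+CL replicate 3 Lpcat2 (0.0650).

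Called genes of the remaining lists are given here. Higher were Ier3 of the immediate early genes (1.39, adjusted p = 0.0132), Psat1, of serine synthesis, in the stress response list (1.53, adjusted p = 0.00839) and Ucp2, a mitochondrial carrier, of the redox list (0.96, adjusted p = 0.0484). Lower were Hk3, a hexokinase of the glycolysis and sugar transport list, which also holds Slc2a5 (-1.59, adjusted p = 0.0287), Slc40a1, the iron exporter, of the metal list that also holds Mt1 (-1.17, adjusted p = 0.0249), and Unc93b1, which carries Toll-like receptors to endosomes (-0.88, adjusted p = 0.0173). Without NMO+CL replicate 2 all 6 were lost, with adjusted p values from 0.0626 to 0.288. Without NMO replicate 1 Psat1, Ucp2, Hk3 and Slc40a1 were lost (from 0.0523 to 0.126), without NMO replicate 2 Ucp2, Hk3 and Unc93b1 (from 0.0584 to 0.150), without NMO replicate 3 Ucp2 and Slc40a1 (0.0994 and 0.0682), without NMO+CL replicate 1 Slc40a1 (0.0568) and without NMO+CL replicate 3 Ucp2 and Hk3 (0.0726 and 0.0736).

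Lists with 0 called members in either direction included ADP/ATP carriers and permeability pore genes (7 tested, median 0.11), the BCL2 family and caspases (27, -0.09), interferon-stimulated genes (27, -0.05), disease-associated microglia genes (24, -0.07), Wnt genes (33, -0.21), TNF and NF-kB signalling (27, 0.11), and DNA replication and cell cycle (29, -0.02). The ADP/ATP carriers themselves had 68.1 to 131 CPM in NMO and 99.9 to 153 CPM in NMO+CL for Slc25a4 (0.17, adjusted p = 0.877) and 47.1 to 123 CPM in NMO and 25.3 to 71.6 CPM in NMO+CL for Slc25a5 (-0.80, adjusted p = 0.396). Ribosome biogenesis genes also had 0 called of 39 and a median of 0.41. Of the 39, 16 lay without overlap above NMO and 0 below, and the most changed by p was Nolc1 (0.89, adjusted p = 0.0537). Cytoplasmic ribosomal proteins had 0 called of 82 and a median of 0.21, with 16 without overlap above and 1 below. Over all tested genes 7.89% lay without overlap above and 9.22% below.

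**Figure D4:**
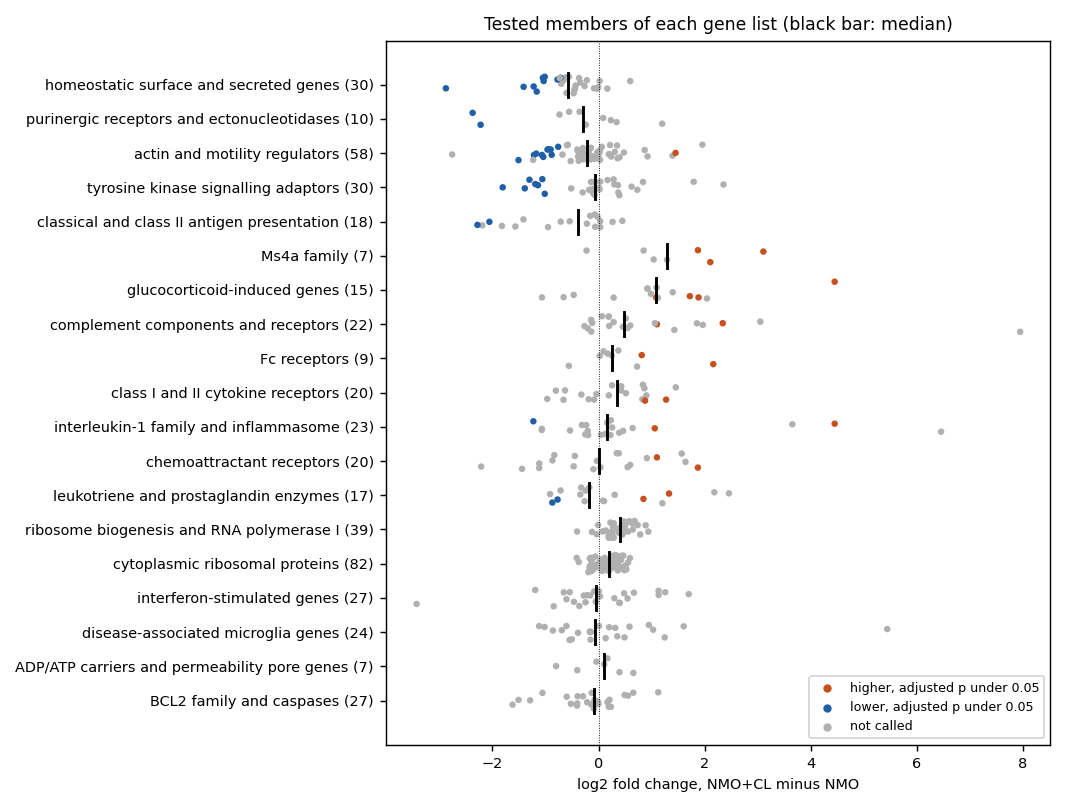
Tested members of 19 gene lists by log2 fold change of NMO+CL minus NMO (x axis), 1 point per gene, with the list median as a black bar and the number tested in brackets. Blue points are genes called lower and orange points genes called higher. The Ms4a, actin, signalling adaptor and leukotriene lists were drawn up after the values had been seen, so their called members reflect that choice. The other lists were chosen with earlier results of these data known.

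Markers of other cell types were low but not the same in the groups. Summed over the 15 monocyte markers, levels ran from 50.2 to 118 CPM in NMO and from 77.9 to 135 CPM in NMO+CL. Of the 14 tested, 9 had fitted values above 0 and 5 below, 0 were called, and the median was 0.47. Fn1 and Ace lay without overlap above NMO and Itga4 below, where 7.89% and 9.22% of all tested genes did so. Ly6c2, their defining transcript, had 44, 20 and 35 counts in NMO and 35, 15 and 24 in NMO+CL, but it shares 500 bases of its 3′ end with Ly6c1 at 98.2% identity. The 15 neutrophil markers summed to 345.5, 173 and 506 CPM in NMO and 1473, 320.4 and 577 CPM in NMO+CL, with 12 of 13 tested fitted above 0 (median 0.91), and S100a9 among them had 40.2 to 152 CPM and 121.5 to 609.8 CPM. The 11 border macrophage markers summed to 199, 10.8 and 171 CPM in NMO and 227 to 413 in NMO+CL, and the 6 red cell markers to 472, 12.2 and 800 CPM in NMO and 850 to 979 in NMO+CL, where the low value of both is NMO replicate 2. Of the border macrophage markers Cbr2 had 159, 0 and 155 CPM in NMO and 185 to 394 CPM in NMO+CL, while Cd163 had 0 counts in all 6 libraries, and 5 of 6 tested members were fitted above 0 (median 0.98). The 14 lymphocyte markers summed to 45.6 to 60.6 CPM in NMO and 19.2 to 23.3 CPM in NMO+CL without overlap, with 0 of 4 tested fitted above 0 (median -3.69). Il7r was the largest member in each NMO library, with 21.9, 39.5 and 40.7 CPM in NMO and 12.3, 9.40 and 2.40 in NMO+CL. Cd79b, the next in NMO, had 8.15 to 17.8 CPM in NMO and 3.40 to 13.4 in NMO+CL, which overlap. Cd3e had 0 counts in all 6 libraries. The 11 astrocyte markers summed to 1104 to 1642 CPM in NMO and 792 to 945 CPM in NMO+CL, and most of this was Glul. None of the 9 lists other than microglia had more than 1 called member. These were Pdgfra, of oligodendrocyte precursors, Kdr, of endothelium, and Il7r, of lymphocytes, which fell. Pdgfra had 1, 0 and 3 counts in NMO, 102, 23 and 61 in NMO+CL (5.52, adjusted p = 0.0207) and 28, 48 and 48 in Normal. Olig1, Olig2 and Sox10 had 0 counts in the 6 libraries. Of 5 tested oligodendrocyte markers 1 was fitted above 0 and 4 below (median -0.12). Kdr had 7.30 to 11.8 CPM in NMO and 29.9 to 39.2 CPM in NMO+CL (1.86, adjusted p = 0.0272). Of 8 tested endothelial and pericyte markers 5 were fitted above 0 and 3 below. Il7r had 21.9 to 40.7 CPM in NMO and 2.40 to 12.3 CPM in NMO+CL (-2.08, adjusted p = 0.0252), against 48.9 to 57.0 CPM in Normal. The log2 value of Pdgfra was 4.93 without NMO replicate 2 and 6.90 without NMO replicate 3. All 3 calls were lost without NMO replicate 2 (adjusted p from 0.0517 to 0.0997). Pdgfra and Kdr were lost without NMO replicate 1 (0.0855 and 0.0951) or NMO+CL replicate 1 (0.0622 for both), Kdr and Il7r without NMO+CL replicate 2 (0.126 and 0.0877), and Il7r without NMO replicate 3 (0.0623). The part of these cells in the results above was not tested.

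**Figure D5:**
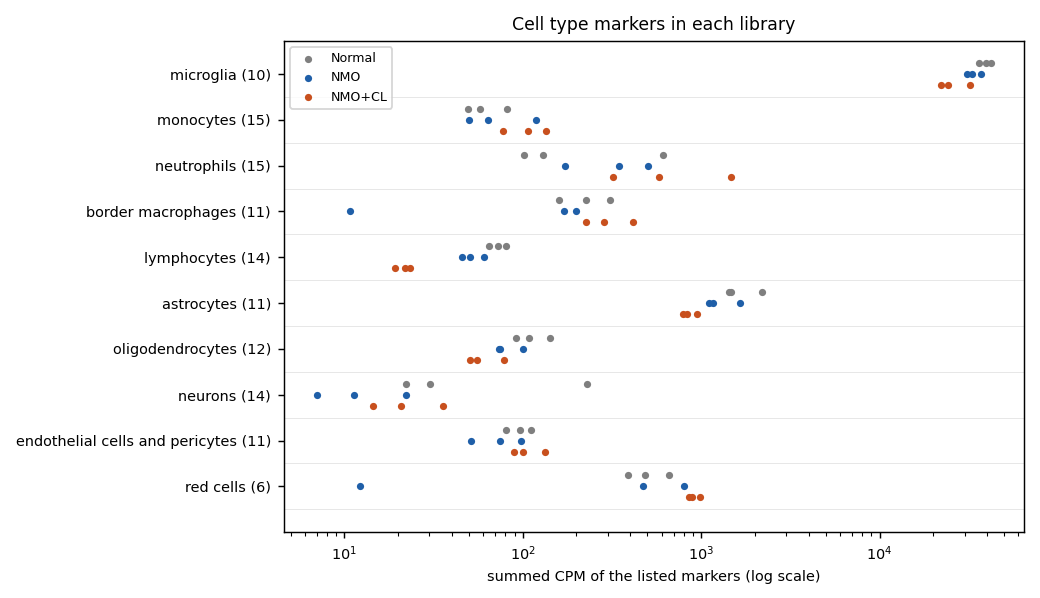
Summed CPM of the marker genes of 10 cell types (x axis, log scale), 1 point per library, with the number of markers in brackets. Microglia markers are at 22040 CPM or more in each of the 6 NMO and NMO+CL libraries, and the isolated points near 10 CPM for border macrophages and red cells are NMO replicate 2.

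Other motifs were searched in the same windows. The AP-1 motif TGACTCA, on either strand, is in the windows of 7 of 57 called higher genes (12.3%), 0 of 93 called lower genes and 405 of 9328 tested genes (4.34%). The 7 are Gpr146, Gpr35, Inpp5a, Notch4, Rcan1, Sema6b and Spint1. Inpp5a faces Nkx6-2 at its 3′ end on the other strand, and both were called higher with equal counts in 3 of the 6 libraries (37, 131 and 184), so the 2 calls cannot be told apart. The window of Notch4, chr17:34564045-34564344 on the plus strand, is printed as the one in which the motif (capitals) lies nearest to the start among the 15 rises with the smallest p.
Notch4: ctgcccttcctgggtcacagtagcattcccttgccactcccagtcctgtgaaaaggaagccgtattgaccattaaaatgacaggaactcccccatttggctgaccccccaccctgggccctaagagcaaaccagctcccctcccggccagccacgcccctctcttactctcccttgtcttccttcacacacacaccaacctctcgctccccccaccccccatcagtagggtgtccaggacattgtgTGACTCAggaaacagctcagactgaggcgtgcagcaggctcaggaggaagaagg
The PU.1 motif GAGGAAGT was in 3 of 57 higher genes (5.26%), 5 of 93 lower genes (5.38%) and 359 of 9328 tested (3.85%), and the CRE TGACGTCA in 2 (3.51%), 4 (4.30%) and 336 (3.60%). The C/EBP motif TTGCGCAA and the SMAD motif GTCTAGAC were in 0 windows of called genes, against 0.397% and 0.257% of those tested. These letters describe the windows and say nothing of binding.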

How the data were processed

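RNA of sorted microglia was sequenced as 3′ end libraries, 3 per group, and the authors deposited raw read counts per gene. Per the labels, reads were aligned with Bowtie2 to mm10 and counted with bedtools, without scaling. Versions, annotation and the use of strand are not given in the sources used here. Because multiple alignments were kept, genes with near-identical 3′ ends can share reads. The 23282 entries held 23238 symbols, and 35 repeated symbols (79 entries) were summed.

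Counts of all 9 libraries were fitted with edgeR 4.0.16 (R 4.3.3, limma 3.58.1), with 1 coefficient per group, trimmed-mean scaling, a filter at a minimum count of 10 and a total of 15, and the quasi-likelihood test of NMO+CL minus NMO. Benjamini-Hochberg adjustment ran over all 12292 tested genes with a threshold of 0.05 for calls. The standard error is the fold change divided by the square root of F. The procedure was tested on simulated data. Each library is a pool, so p-values rest on the spread between pools and not between mice. This spread was estimated within all 3 groups, Normal included. Named are the 15 genes with the smallest p in each direction (no overlap between groups, mean count 50 or more), every called member of a gene list, the sort markers, a few fixed genes and the most abundant list members. Genes named beyond this rule (list members that were not called, genes facing a named gene, and genes with a motif) were chosen after their values were seen. The members and lists were chosen with earlier results of these data known. Of the tested symbols 11814 were found in the GENCODE M21 annotation, and 9328 had a promoter window. Alternatives were other scalings, filters and tests (DESeq2 1.42.0, limma-voom), the 6 libraries alone, a replicate block and leaving out each library. Intervals cover counting error only.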

Additional observations from a re-analysis of the deposited data

How the results depend on the processing

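The 65 higher and 131 lower calls became 180 and 316 with every gene that had a count, 39 and 34 with the 6 libraries alone, and 191 and 274 with DESeq2. Leaving out one library at a time gave 18 to 75 higher and 33 to 169 lower. Another scaling gave 68 and 112 (size factors of DESeq2) or 52 and 142 (totals alone), and limma-voom 82 and 101. The cause of these differences was not tested. Of the 93 genes chosen by the naming rule 82 were called, 30 of them in all 14 alternatives, and 0 reversed; genes named beyond the rule were not followed gene by gene across the alternatives. Of the 82 calls, 36 were lost with the 6 libraries alone, 9 with limma-voom, 7 with size factors of DESeq2, 6 with a replicate block, 5 with totals alone, 3 without Rn45s, 3 with DESeq2 and 0 with every gene that had a count. The 6 lost with a replicate block were Il1r2, Lpcat2, Nlrp3, Selplg, Tap2 and Ucp2 (adjusted p from 0.0510 to 0.0751). Deviations from the group means correlated weakly between same-numbered NMO and NMO+CL libraries (-0.0070, 0.030 and 0.026). NMO replicates 2 and 3, but not 1, correlated best with the NMO+CL library of their own number. These values do not settle whether the samples were paired. With a replicate block there were 64 higher and 133 lower genes, of which 56 and 113 were called without it too.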
